A study of Mus musculus with 24 samples.

Results

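The genes described here are 37 ribosome biogenesis and nucleolar factors, chosen by name as genes with a known part in making ribosomes, in a mouse liver RNA sequencing study of the clock gene Arntl (also called Bmal1). Earlier results of these data were known when the genes were chosen, so shares set against all tested genes are a description. All 37 were found once each among the 35304 genes of the count table, all had a mean of at least 0.5 CPM (counts scaled to library size, here with TMM factors), and all 37 were among the 17275 genes with enough counts to be tested. The HepKO mice carried the Alb::Cre transgene on a floxed background (Alb::Cre_+/0, Bmal1_fl/fl), in which the albumin promoter drives Cre recombinase in hepatocytes and other liver cells keep Arntl. The HepWT mice carried the same floxed alleles without Cre (Alb::Cre_0/0, Bmal1_fl/fl). All mice of both genotypes were C57BL/6, aged 8 to 12 weeks, and kept on night restricted feeding. Each genotype was sampled at 6 zeitgeber times (ZT, counted in hours from lights on), namely ZT2, 6, 10, 14, 18 and 22, and each of the 12 groups holds 2 libraries. ZT2, 6 and 10 are called the light phase below and ZT14, 18 and 22 the dark phase, as under the usual even light cycle, which the labels do not spell out. The labels do not say that the 2 came from different mice, so the p-values below reflect the spread between libraries, which may be technical.

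Ribosomes are built in the nucleolus, where RNA polymerase I transcribes the precursor of the ribosomal RNAs. Small nucleolar ribonucleoproteins (snoRNPs) modify that precursor, and assembly factors fold it, cut it and join it to ribosomal proteins, by separate routes for the small and the large subunit. In liver these steps are known to follow feeding, which the study fixed to the night, and many of the genes are known targets of MYC, a transcription factor that binds the same E-box letters as CLOCK with BMAL1.

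The E-box CACGTG, which reads the same on both strands, was looked for in the RefSeq promoter windows (build GRCm38.p6, 250 bases before to 50 after the annotated start), because both transcription factor pairs can bind it. A window was available for 32 of the 37 genes, and 7 of them (21.9%) held the E-box, against 8.09% of all 27025 genes with a window. The 7 were Nop2, Pes1, Wdr43, Utp20, Mybbp1a, Rrn3 and Grwd1, and Rrn3 held it at 2 positions. A match describes these letters and shows no binding. Shown are the windows of 3 of the 7, picked because the test below called a daily rhythm in both genotypes. They are Nop2 at chr6:125131633-125131932 (plus strand), Mybbp1a at chr11:72441077-72441376 (plus strand) and Grwd1 at chr7:45830740-45831039 (minus strand). Of the other E-box genes, Wdr43 and Utp20 had a rhythm called in HepWT alone, and Pes1 and Rrn3 in neither genotype. The window of Nolc1 at chr19:46075597-46075896 (plus strand), the gene with the largest rhythm of the 37, held none. Capitals mark the E-box, whose first letter stands at position -60 in Nop2, 41 in Mybbp1a and 35 in Grwd1, counted from 1 at the annotated start with no position 0.
Nop2: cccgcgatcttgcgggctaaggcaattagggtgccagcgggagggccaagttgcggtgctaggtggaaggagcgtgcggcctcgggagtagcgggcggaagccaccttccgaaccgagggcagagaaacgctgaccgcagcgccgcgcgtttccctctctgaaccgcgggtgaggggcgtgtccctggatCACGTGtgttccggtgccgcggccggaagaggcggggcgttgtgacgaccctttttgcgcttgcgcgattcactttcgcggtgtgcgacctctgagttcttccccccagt
Mybbp1a: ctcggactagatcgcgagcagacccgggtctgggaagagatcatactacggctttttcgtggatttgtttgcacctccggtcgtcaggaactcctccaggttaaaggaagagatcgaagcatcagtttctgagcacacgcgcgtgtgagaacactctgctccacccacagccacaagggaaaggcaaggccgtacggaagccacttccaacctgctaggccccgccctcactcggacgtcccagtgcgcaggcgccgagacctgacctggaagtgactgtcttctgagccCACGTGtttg
Grwd1: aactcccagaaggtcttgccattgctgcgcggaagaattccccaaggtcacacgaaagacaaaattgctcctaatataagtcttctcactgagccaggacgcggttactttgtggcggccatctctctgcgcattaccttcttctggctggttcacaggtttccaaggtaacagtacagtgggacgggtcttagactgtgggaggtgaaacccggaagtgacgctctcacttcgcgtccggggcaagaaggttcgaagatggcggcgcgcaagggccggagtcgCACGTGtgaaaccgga
Nolc1: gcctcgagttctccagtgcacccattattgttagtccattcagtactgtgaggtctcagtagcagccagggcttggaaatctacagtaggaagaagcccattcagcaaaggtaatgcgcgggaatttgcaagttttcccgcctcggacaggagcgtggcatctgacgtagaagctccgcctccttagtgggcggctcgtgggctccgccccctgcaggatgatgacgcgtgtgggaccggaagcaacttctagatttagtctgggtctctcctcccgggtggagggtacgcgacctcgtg

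Facts of the whole set of libraries touch these genes as follows. Total counts were 12997689 to 16910415 in 5 HepKO replicate 2 libraries (ZT6, 10, 14, 18 and 22), the same 5 whose columns have a name suffix of unstated meaning, and 23583035 to 30677807 in the other 19, and a member had 64 to 3992 counts in a library. Arntl RNA, counted over the whole gene and so including reads outside the floxed part, ran from 10.3 to 17.7 CPM in HepKO and from 1.27 to 46.0 CPM in HepWT. Its 24 h amplitude (fitted distance from mean to peak, log2) was 0.32 in HepKO and 2.27 in HepWT, and the rhythms differed (edgeR's quasi-likelihood test, adjusted p = 0.00208). The labelled tissue was borne out by its markers: the 8 hepatocyte markers summed to 59703 to 71593 CPM in HepKO and 92027 to 120276 CPM in HepWT, and 1 of the 8 was lower in HepKO. All 8 cycling cell markers were lower in HepKO, with sums of 9.96 to 24.5 CPM there and 19.6 to 87.9 CPM in HepWT, where the mean sum was 25.8 CPM over replicate 1 and 51.4 CPM over replicate 2 libraries. All 9 Kupffer cell and macrophage markers (sums 234 to 485 CPM in HepKO and 299 to 545 CPM in HepWT) and 5 of 7 endothelial markers were also lower. Among cholangiocyte markers 2 of 5 were higher, with sums of 46.8 to 158 CPM in HepKO and 25.9 to 57.9 CPM in HepWT. Of 7 stellate cell and fibroblast markers 1 was higher and 3 were lower (370.0 to 485 CPM in HepKO and 378 to 580.3 CPM in HepWT), and the 6 T, NK and B cell markers summed to 1.49 to 5.17 CPM in HepKO and 1.28 to 4.52 CPM in HepWT. No marker of these lists was at 0 in all libraries of a genotype. The part of these markers in the results below was not tested, and in bulk liver RNA a change in the number of cells of a type and a change in RNA per cell cannot be told apart.

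Most ribosome biogenesis genes had their lowest mean in the light phase and their highest at ZT14, in HepKO as in HepWT. The highest mean of 2 libraries fell at ZT14 for 34 of 37 genes in HepKO and for 31 of 37 in HepWT. In HepKO the exceptions were Bop1 and Mybbp1a at ZT18 and Dkc1 at ZT22. In HepWT they were Bop1, Noc2l and Nop16 at ZT18, Dkc1 and Fbl at ZT22, and Ubtf at ZT6. The lowest mean fell at ZT2, 6 or 10 for 35 genes in HepKO and 36 in HepWT. The ZT14 maximum in HepKO rested on replicate 1. Averaged over the 37 genes, log2 level (0.5 CPM added) minus the gene's mean was 0.57 in HepKO replicate 1 at ZT14 and 0.01 at ZT22. In HepKO replicate 2 it was 0.23 at ZT14 and 0.28 at ZT22. In HepWT it was 0.33 and 0.59 at ZT14 and 0.19 and 0.13 at ZT22.

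**Figure D1:**
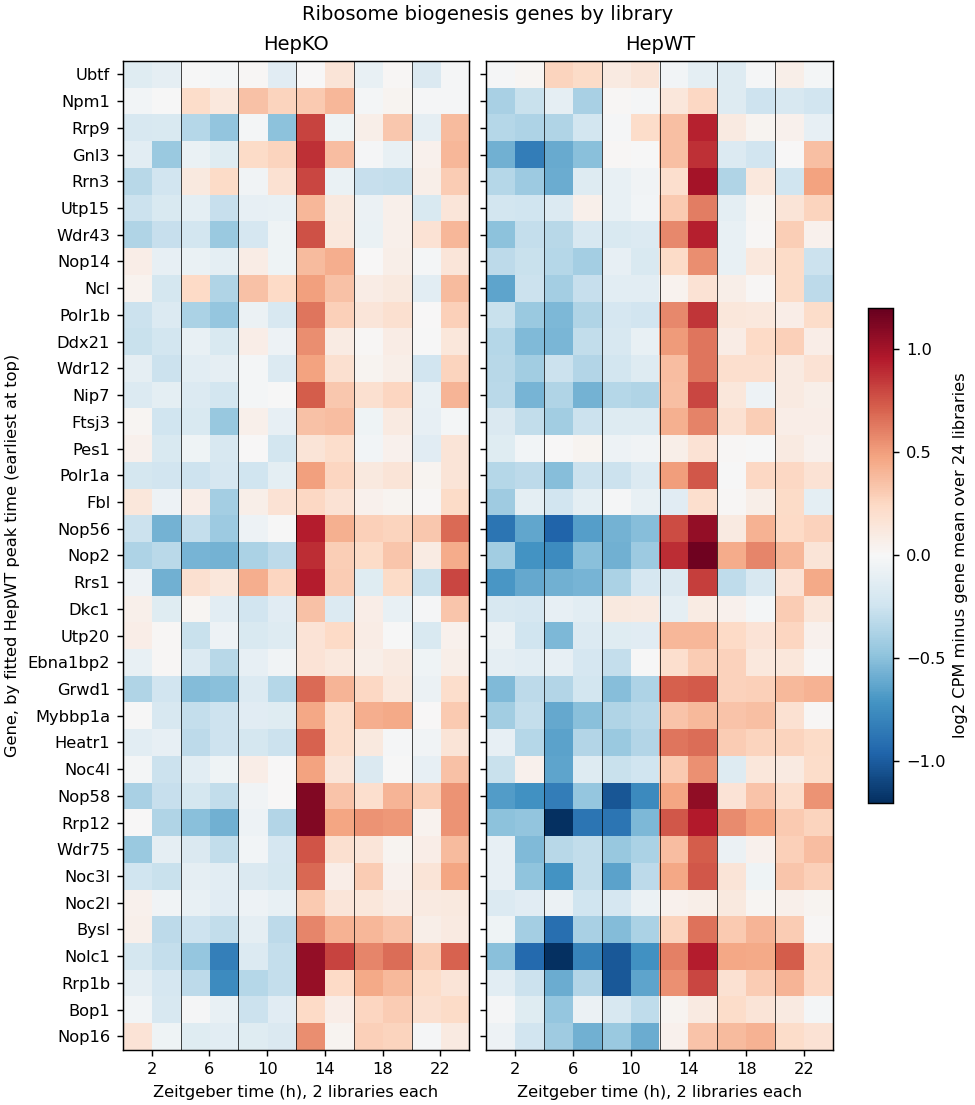
Level of each of the 37 genes in each of the 24 libraries (columns, by zeitgeber time in h, HepKO left and HepWT right), as log2 CPM minus the gene's mean over all libraries. For most rows the ZT14 columns are the reddest in HepWT, and in HepKO the ZT14 column of replicate 1 is. The ZT2 to ZT10 columns are paler in HepKO than in HepWT.

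A 24 h rhythm was tested for each gene in each genotype with a cosine and sine fitted to all 24 libraries. It was called (edgeR's quasi-likelihood test, Benjamini-Hochberg adjusted p below 0.05 over all tested genes) for 17 of the 37 genes in HepKO (45.9%), against 14.3% of all tested genes. In HepWT it was called for 31 of the 37 (83.8%), against 30.3% of all tested genes. All 17 genes called in HepKO were also called in HepWT, 14 were called in HepWT alone, and 6 (Fbl, Pes1, Utp15, Rrs1, Dkc1 and Rrn3) were called in neither. The HepKO count depended on single libraries: it was 10 without HepKO ZT6 replicate 2, 11 without HepKO ZT6 replicate 1 and 11 without HepKO ZT14 replicate 1. Without the 5 HepKO libraries of low depth it was 1 (Mybbp1a), in a fit that left 7 HepKO libraries. In HepWT it was 20 with either the replicate 1 or the replicate 2 libraries alone.

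Among the snoRNP genes, Nolc1, which encodes a chaperone that shuttles snoRNPs in the nucleus, had the largest rhythm in both genotypes. In HepKO livers Nolc1 had 29.2 and 27.8 CPM at ZT2, 24.5 and 19.2 CPM at ZT6, 30.2 and 27.9 CPM at ZT10, 70.2 and 59.4 CPM at ZT14, 50.7 and 53.8 CPM at ZT18 and 41.5 and 55.4 CPM at ZT22. In HepWT livers it had 23.95 and 17.7 CPM at ZT2, 13.4 and 19.5 CPM at ZT6, 16.7 and 20.5 CPM at ZT10, 51.5 and 64.9 CPM at ZT14, 46.6 and 46.3 CPM at ZT18 and 55.9 and 40.4 CPM at ZT22. Both libraries of HepKO were above both of HepWT at ZT2, 10 and 18, and the genotypes overlapped at ZT6, 14 and 22. The fitted amplitude of Nolc1 was 0.76 ± 0.12 (SE) log2 in HepKO, a 2.87-fold change between trough and peak, and 1.00 ± 0.12 in HepWT, a 4.00-fold change. Its fitted peak stood at ZT17.3 ± 0.60 h in HepKO and ZT17.8 ± 0.46 h in HepWT (edgeR adjusted p = 0.00115 in HepKO and 1.32e-05 in HepWT).

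Nop56 and Nop58 encode the paired core proteins of box C/D snoRNPs, which guide methylation of ribosomal RNA. Nop58 had 21.3 and 22.9 CPM at ZT2, 23.9 and 22.6 CPM at ZT6, 26.98 and 27.8 CPM at ZT10, 60.1 and 35.3 CPM at ZT14, 32.03 and 36.98 CPM at ZT18 and 34.02 and 40.4 CPM at ZT22 in HepKO livers. In HepWT livers Nop58 had 17.4 and 16.8 CPM at ZT2, 15.6 and 20.1 CPM at ZT6, 13.7 and 16.4 CPM at ZT10, 38.6 and 58.1 CPM at ZT14, 31.2 and 35.1 CPM at ZT18 and 32.1 and 40.4 CPM at ZT22. The HepKO libraries were all above the HepWT libraries of the same time at ZT2, 6 and 10, and overlapped with them at ZT14, 18 and 22. At ZT14 the 2 libraries of a genotype were far apart in both genotypes. The Nop58 amplitude was 0.50 ± 0.14 log2 in HepKO (adjusted p = 0.0455) and 0.78 ± 0.14 in HepWT (adjusted p = 0.000747, edgeR); the HepKO call was lost in 15 of the 24 fits that left out 1 library.

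Nop56 followed the same course, with 20.96 and 16.8 CPM at ZT2, 20.5 and 18.4 CPM at ZT6, 23.9 and 24.9 CPM at ZT10, 48.1 and 33.5 CPM at ZT14, 30.5 and 29.99 CPM at ZT18 and 31.2 and 40.1 CPM at ZT22 in HepKO livers. In HepWT livers Nop56 had 13.6 and 16.2 CPM at ZT2, 12.9 and 15.8 CPM at ZT6, 16.9 and 17.5 CPM at ZT10, 43.1 and 52.00 CPM at ZT14, 27.01 and 33.3 CPM at ZT18 and 29.6 and 30.2 CPM at ZT22. HepKO was above HepWT without overlap at ZT2, 6, 10 and 22. The Nop56 amplitude was 0.53 ± 0.12 log2 in HepKO and 0.84 ± 0.12 in HepWT (edgeR adjusted p = 0.0169 and 7.93e-05 in that order). Fbl, the methyltransferase of the same particle, ran from 10.1 to 15.9 CPM in HepKO and from 9.99 to 15.8 CPM in HepWT, with amplitudes of 0.10 ± 0.06 and 0.15 ± 0.06 log2 that were not called. Dkc1, the pseudouridine synthase of box H/ACA snoRNPs, ran from 14.7 to 22.02 CPM in HepKO and from 15.04 to 21.3 CPM in HepWT and was not called either. The catalytic members of both kinds of snoRNP therefore had no called rhythm, while Nop56, Nop58, Nolc1 and Rrp9, a protein bound to the U3 snoRNA, had one in each genotype.

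Nop56, Nop58, Ncl, Gnl3, Wdr43 and Dkc1 carry 19 annotated snoRNA genes within their bounds (GENCODE M21), 5 of them in Nop56 and 4 in Nop58. Of these 6 host genes, 2 were rhythmic in HepKO and 5 in HepWT, against 14.3% and 30.3% of all tested genes, and 4 were called higher in HepKO over the 6 times, against 13.2%.

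Rrp12, a factor of small subunit export and maturation, and Bysl, which is needed late in small subunit assembly, had amplitudes among the 8 largest of the 37 genes in HepWT. Rrp12 had 13.4 and 10.4 CPM at ZT2, 9.43 and 8.995 CPM at ZT6, 12.8 and 10.5 CPM at ZT10, 28.8 and 18.6 CPM at ZT14, 19.4 and 19.2 CPM at ZT18 and 13.7 and 19.5 CPM at ZT22 in HepKO livers. In HepWT livers Rrp12 had 9.50 and 9.65 CPM at ZT2, 4.86 and 7.29 CPM at ZT6, 7.29 and 9.18 CPM at ZT10, 22.5 and 25.9 CPM at ZT14, 19.8 and 18.7 CPM at ZT18 and 16.6 and 16.1 CPM at ZT22. HepKO was above HepWT without overlap at ZT2, 6 and 10, and the libraries overlapped at the other 3 times. The amplitude of Rrp12 was 0.63 ± 0.12 log2 in HepKO and 0.96 ± 0.12 in HepWT, with peaks at ZT17.0 and ZT17.5 (adjusted p = 0.00369 in HepKO and 1.3e-05 in HepWT, edgeR). Bysl ran from 12.2 over a median of 15.8 to 22.6 CPM in HepKO and from 8.05 over a median of 14.9 to 23.8 CPM in HepWT, with amplitudes of 0.38 ± 0.08 and 0.55 ± 0.08 log2. Of the 8 processome genes Rrp9, Heatr1, Utp15, Utp20, Wdr43, Wdr75, Nop14 and Noc4l, Rrp9 alone was called rhythmic in HepKO (edgeR adjusted p = 0.0434) and all but Utp15 were called in HepWT. Rrp9 had amplitudes of 0.38 ± 0.10 log2 in HepKO and 0.44 ± 0.10 in HepWT. The amplitudes of the other 7 ran from 0.11 log2 (Utp20) to 0.34 (Wdr43) in HepKO and from 0.21 (Utp15) to 0.53 (Heatr1) in HepWT.

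On the large subunit route, Nop2, which methylates the large ribosomal RNA, led. Nop2 had 17.4 and 18.03 CPM at ZT2, 15.3 and 15.2 CPM at ZT6, 17.4 and 18.2 CPM at ZT10, 41.7 and 27.8 CPM at ZT14, 26.4 and 28.3 CPM at ZT18 and 24.2 and 30.8 CPM at ZT22 in HepKO livers. In HepWT livers Nop2 had 16.9 and 13.7 CPM at ZT2, 13.4 and 15.98 CPM at ZT6, 15.1 and 16.7 CPM at ZT10, 41.8 and 50.6 CPM at ZT14, 30.7 and 33.9 CPM at ZT18 and 29.7 and 25.1 CPM at ZT22. The HepKO libraries were above those of HepWT at ZT2 and 10 and below them at ZT14 and 18. Amplitudes of Nop2 were 0.57 ± 0.11 log2 in HepKO and 0.83 ± 0.11 in HepWT (edgeR adjusted p = 0.00589 and 2.85e-05 in that order). Rrp1b, a nucleolar protein that also binds a protein phosphatase, ran from 4.80 over a median of 8.24 to 16.7 CPM in HepKO and from 3.99 over 8.28 to 14.1 CPM in HepWT. Its amplitude was 0.55 ± 0.13 log2 in HepKO and 0.58 ± 0.13 in HepWT. Grwd1, a histone-binding protein with a part in large subunit assembly, ran from 6.78 over a median of 8.99 to 15.6 CPM in HepKO and from 6.77 over 10.1 to 16.2 CPM in HepWT, with amplitudes of 0.46 ± 0.10 and 0.54 ± 0.10 log2.

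Pes1, Bop1 and Wdr12 encode the 3 subunits of the PeBoW complex, which acts in large subunit processing. Their rhythm calls were not alike, though a difference between the 3 genes was not tested. Bop1 was rhythmic in both genotypes with amplitudes of 0.23 ± 0.05 log2 in HepKO and 0.22 ± 0.05 in HepWT. Wdr12 had amplitudes of 0.21 ± 0.07 in HepKO, not called, and 0.41 ± 0.07 in HepWT, called. Pes1 had 0.11 ± 0.05 in HepKO and 0.06 ± 0.05 in HepWT and was called in neither. Nop16 reached its fitted peak latest of the HepWT rhythmic members, at ZT18.8 ± 0.49 h, with an amplitude of 0.21 ± 0.06 log2 in HepKO and 0.49 ± 0.06 in HepWT.

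**Figure D2:**
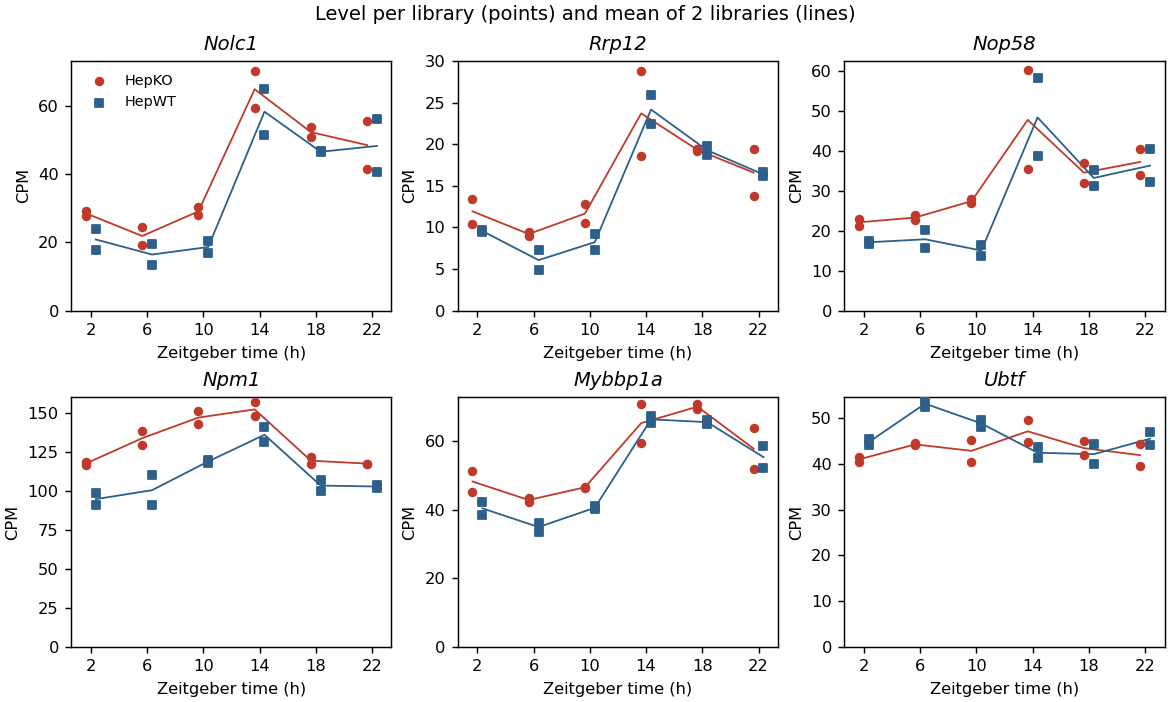
CPM of 6 genes by zeitgeber time (h), with 1 point per library (HepKO red circles, HepWT blue squares) and lines through the mean of 2 libraries. Nolc1, Rrp12 and Nop58 climb at ZT14 in both genotypes, Npm1 is higher in HepKO at every time, and Ubtf is lower in HepKO at ZT2, 6 and 10.

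The RNA polymerase I genes split. Polr1a and Polr1b, which encode the paired largest subunits of the enzyme, were rhythmic in both genotypes. Polr1a ran from 33.8 over a median of 39.1 to 56.6 CPM in HepKO and from 28.3 over 38.04 to 67.6 CPM in HepWT, with amplitudes of 0.29 ± 0.07 and 0.44 ± 0.07 log2. Polr1b had amplitudes of 0.38 ± 0.08 in HepKO and 0.50 ± 0.08 in HepWT. Ubtf, which opens the ribosomal DNA for transcription, went the other way. It had 40.5 and 41.6 CPM at ZT2, 44.6 and 44.1 CPM at ZT6, 45.2 and 40.6 CPM at ZT10, 44.8 and 49.6 CPM at ZT14, 41.97 and 45.02 CPM at ZT18 and 39.6 and 44.3 CPM at ZT22 in HepKO livers. In HepWT livers Ubtf had 44.2 and 45.5 CPM at ZT2, 53.9 and 52.5 CPM at ZT6, 48.1 and 49.7 CPM at ZT10, 43.7 and 41.3 CPM at ZT14, 40.04 and 44.3 CPM at ZT18 and 47.04 and 44.1 CPM at ZT22. HepKO was below HepWT without overlap at ZT2, 6 and 10 and above it at ZT14. Ubtf was the only one of the 31 genes rhythmic in HepWT whose fitted peak fell in the light phase, at ZT6.17 ± 1.00 h, with an amplitude of 0.14 ± 0.04 log2 (edgeR adjusted p = 0.0161), against 0.07 ± 0.04 in HepKO (adjusted p = 0.394). Rrn3, the initiation factor that brings the polymerase to the promoter, differed widely between the libraries of ZT14, at 66.7 and 36.2 CPM in HepKO and 44.1 and 76.6 CPM in HepWT, and was called rhythmic in neither genotype.

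Npm1, Ncl, Gnl3 and Mybbp1a encode abundant nucleolar proteins with several roles, among them the histone chaperone nucleophosmin (Npm1) and nucleolin (Ncl). Per kb of exon, Npm1 had the highest level of the 37 genes, at 49.2 CPM per kb in HepKO and 41.0 CPM per kb in HepWT, and Nop16 came next at 12.6 and 11.7 CPM per kb. Of these 4 genes Npm1 had the earliest fitted peak in each genotype, at ZT11.2 ± 0.78 h in HepKO and ZT13.2 ± 0.72 h in HepWT, with amplitudes of 0.21 ± 0.04 and 0.22 ± 0.04 log2. Mybbp1a, a repressor of RNA polymerase I transcription that binds MYB, had the smallest rhythm p of the 37 genes in both genotypes, 0.000168 in HepKO and 2.41e-07 in HepWT (adjusted, edgeR). Its amplitudes were 0.36 ± 0.05 and 0.50 ± 0.05 log2 in that order.

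Fitted peaks were gathered in the dark phase. Between ZT14 and ZT20, a window chosen after the values were seen, fell 16 of the 17 peaks called in HepKO (all but Npm1) and 29 of the 31 called in HepWT (all but Npm1 and Ubtf). Of all genes called rhythmic, 35.3% in HepKO and 32.6% in HepWT peaked there. The median peak was ZT16.97 in HepKO and ZT17.15 in HepWT. A single cosine placed these peaks later than the highest sampled time, ZT14, and levels at ZT18 and 22 were still above those of the light phase for most genes. Over the 17 genes rhythmic in both genotypes, peaks in HepKO stood a median of -0.24 h from those in HepWT, with a range from -2.05 h (Npm1) to 2.47 h (Rrp9), and 11 of 17 were earlier. The median over all 1803 genes rhythmic in both was -0.27 h, so the shift was near that of other genes.

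**Figure D3:**
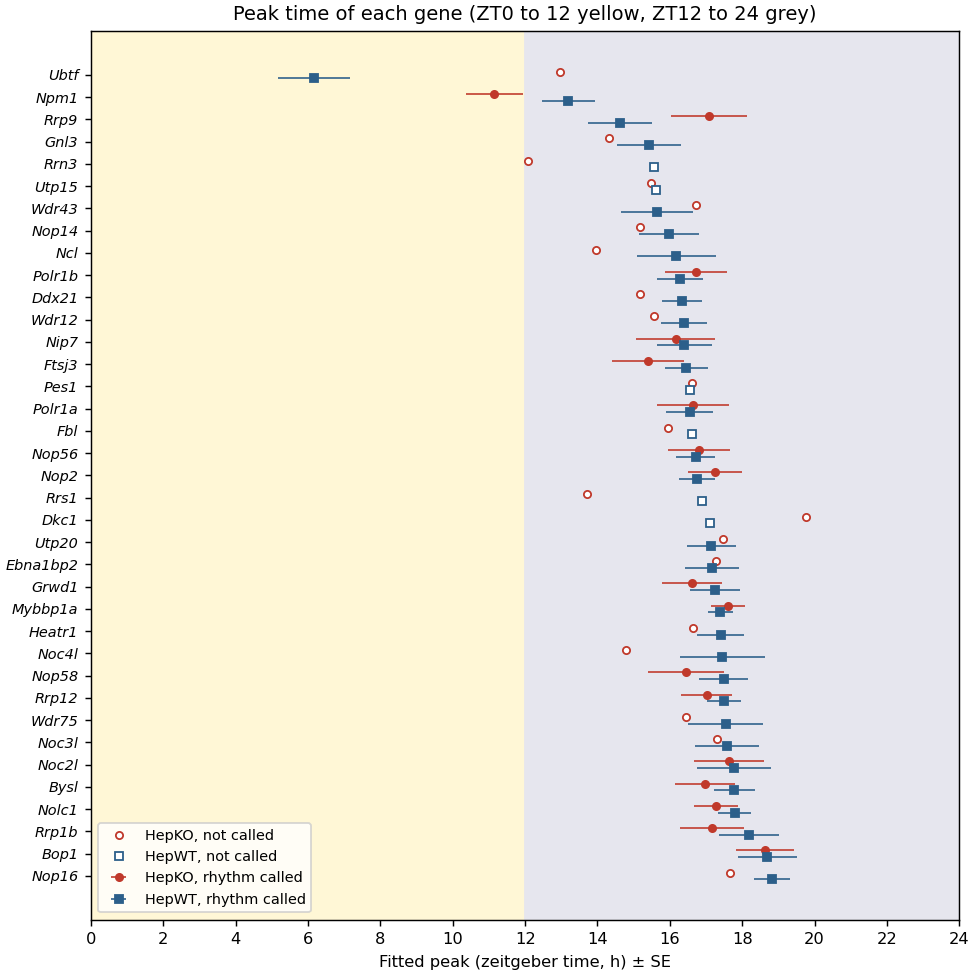
Fitted peak time (h, ± SE) of each gene, ordered by its HepWT peak, with HepKO (red circles) drawn above HepWT (blue squares) and open symbols where no rhythm was called. Most filled symbols lie between ZT14 and ZT20, with Npm1 earlier in both genotypes and Ubtf at ZT6.17 in HepWT.

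The difference between the rhythms of the genotypes was tested directly. No gene of the 37 was called (edgeR's quasi-likelihood test, smallest adjusted p = 0.221, for Ubtf), against 1.5% of all tested genes. DESeq2 and limma-voom called 0 as well, edgeR without a filter on low counts called 2 (Nop58 and Rrn3), and at an unadjusted p below 0.05 there were 2 of 37 (Ubtf and Nop16), against 12.5% of all tested genes. The fitted amplitude was lower in HepKO for 33 of the 37 genes (89.2%), against 59.7% of all tested genes. The median amplitude of the 37 was 0.29 log2 in HepKO and 0.43 in HepWT, against 0.19 and 0.22 over all tested genes. The median difference was -0.14, against -0.03 over all genes. All tested genes thus had smaller amplitudes to lose, and the share among genes of like HepWT amplitude was not computed. Per gene the difference had a wide error: its 95% interval held 0 for 32 of 37, and ran from -0.59 to 0.11 for Nolc1, from -0.67 to 0.01 for Rrp12 and from -0.68 to 0.13 for Nop58. For Nop16 it ran from -0.46 to -0.09, for Ddx21, an RNA helicase, from -0.44 to -0.03, and for Utp20 from -0.39 to -0.04, before any adjustment over genes. A rhythm called in HepWT alone for 14 genes is therefore no evidence that those genes differed.

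**Figure D4:**
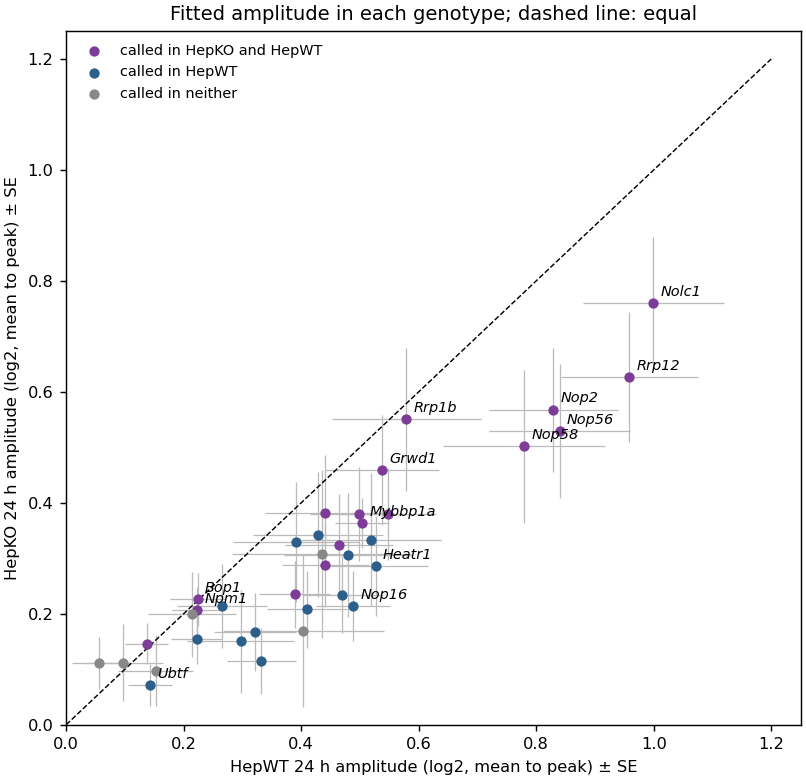
Fitted 24 h amplitude (log2, mean to peak, ± SE) of each of the 37 genes in HepKO (vertical) against HepWT (horizontal), coloured by where a rhythm was called. Points below the dashed line of equality, 33 of 37, had the lower amplitude in HepKO. For many genes, Nolc1, Rrp12 and Nop16 among them, the SE bars end short of the line. The wider 95% interval of the difference held 0 for 32 of 37.

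Averaged over the 6 times, 8 of the 37 genes (21.6%) were higher in HepKO and none was lower, against 13.2% of all tested genes higher and 13.3% lower. The 8 were Rrs1, Nolc1, Nop58, Ncl, Npm1, Nop56, Gnl3 and Mybbp1a, and the largest of their differences was 0.38 log2, in Rrs1. At an unadjusted p below 0.05 there were 13 higher and 1 lower in edgeR, and the share of all tested genes at that threshold was not computed. DESeq2 called 9 higher and 0 lower, and limma-voom 7 higher and 0 lower. The other 29 genes had differences from -0.09 to 0.24 log2. The median difference of the 37 was 0.07 log2, against -0.01 over all tested genes, with 24 positive and 13 negative. That median was small and moved with the libraries. In a fit with time as a 24 h wave it was 0.12 log2 from the replicate 1 libraries. The same fit gave -0.01 from the replicate 2 libraries, which hold the HepKO libraries of low depth. With group means, as for the 0.07, it ran from 0.02 (without HepKO ZT14 replicate 1) to 0.11 (without HepKO ZT14 replicate 2) when 1 library was left out.

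Npm1 was the firmest of these. It had 116 and 119 CPM at ZT2, 138 and 129 CPM at ZT6, 151 and 143 CPM at ZT10, 148 and 157 CPM at ZT14, 117 and 122 CPM at ZT18 and 117 and 118 CPM at ZT22 in HepKO livers. In HepWT livers it had 90.7 and 98.7 CPM at ZT2, 110.1 and 90.7 CPM at ZT6, 119.9 and 118 CPM at ZT10, 131 and 141 CPM at ZT14, 107 and 100.1 CPM at ZT18 and 104 and 102 CPM at ZT22. Both HepKO libraries were above both HepWT libraries at each of the 6 times. The mean was 131 ± 15.3 CPM in HepKO and 109 ± 15.5 CPM in HepWT (SD over 12 libraries each, which includes the change over the day), a difference of 0.27 ± 0.04 log2 or 1.202-fold (edgeR adjusted p = 2.7e-05). The call held in all 24 fits that left out 1 library, where the adjusted p was at most 0.000109.

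Ncl averaged 81.0 ± 13.9 CPM in HepKO and 67.3 ± 11.5 CPM in HepWT, 0.27 ± 0.08 log2 higher (adjusted p = 0.0173, edgeR). Nolc1 averaged 40.8 ± 16.5 CPM in HepKO and 34.8 ± 18.0 CPM in HepWT, 0.31 ± 0.08 log2 higher (edgeR adjusted p = 0.0103). Mybbp1a averaged 55.2 ± 11.2 CPM in HepKO and 50.6 ± 13.2 CPM in HepWT, 0.15 ± 0.04 log2 higher (edgeR adjusted p = 0.0173). These 3 calls also held in all 24 fits that left out 1 library. Nop58 (0.28 ± 0.09), Nop56 (0.22 ± 0.07), Gnl3 (0.22 ± 0.07) and Rrs1 (0.38 ± 0.13 log2, edgeR adjusted p = 0.0363) were called as well, but lost the call in 4, 7, 17 and 16 of those 24 fits in that order. Rrs1, a regulator of large subunit assembly, had the largest difference of the 37 genes and also wide spread, from 9.46 over a median of 16.3 to 27.1 CPM in HepKO and from 8.70 over 11.8 to 25.01 CPM in HepWT. Gnl3, the nucleolar GTPase nucleostemin, averaged 37.4 ± 9.76 CPM in HepKO and 33.1 ± 12.0 CPM in HepWT.

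The count of 8 moved with single libraries. It was 4 without HepKO ZT22 replicate 2 and 12 without HepKO ZT14 replicate 2, and 5 without each of HepKO ZT2, ZT6 or ZT14 replicate 1, HepKO ZT18 replicate 2, or HepWT ZT6, ZT10 or ZT18 replicate 1. It was 4 without the 5 libraries of low depth and 2 with the HepWT replicate 2 libraries alone. Exons of Nop56 and Gnl3 overlap the spans, introns included, of Idh3b and Pbrm1 on the opposite strand. The same held with some gene for 16 of the 37 genes in all (Mybbp1a with Spns2, Bysl with Ccnd3, Rrp1b with Hsf2bp, Grwd1 with Gm45441). Overlap of exons with exons was not looked at for these genes. The strand setting of the counting is not stated, and the values of these genes are uncertain if it took in reads from both strands.

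The genotypes were also compared at each time. Both HepKO libraries were above both HepWT libraries for 24 of the 37 genes at ZT2 (against 21.5% of all tested genes), 18 at ZT6 (23.8%) and 25 at ZT10 (25.8%). The same held for 4 genes at ZT14 (22.3%), 10 at ZT18 (24%) and 4 at ZT22 (19.2%). Both HepKO libraries were below both HepWT libraries for 1 gene at ZT2 (against 22.9% of all tested genes), 3 at ZT6 (24.6%), 4 at ZT10 (27.4%), 6 at ZT14 (22.5%), 9 at ZT18 (24.5%) and 8 at ZT22 (19.5%). The median log2 ratio of the 37 genes was 0.16 at ZT2, 0.20 at ZT6 and 0.16 at ZT10, against -0.06 at ZT14, 0.02 at ZT18 and 0.01 at ZT22.

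Fitted over ZT2, 6 and 10 together, a grouping chosen after the values by time were seen, 11 genes were higher in HepKO (edgeR, adjusted p below 0.05), against 8.59% of all tested genes. Ubtf alone was lower, against 9.15% of all tested genes. The 11 were Rrs1, Nop58, Nolc1, Rrp12, Nop56, Gnl3, Ncl, Npm1, Nop16, Nip7 and Mybbp1a, a range from 0.57 ± 0.18 log2 for Rrs1 (1.49-fold) to 0.25 ± 0.06 for Mybbp1a (1.19-fold). Nop58 was 0.54 ± 0.13 log2 higher, or 1.45-fold (edgeR adjusted p = 0.00638), Rrp12 0.48 ± 0.13 and Nip7, a factor of the large subunit route, 0.30 ± 0.10. Ubtf was lower by -0.19 ± 0.05 log2 (edgeR adjusted p = 0.0111). The median of the 37 was 0.17 log2, against -0.01 over all tested genes.

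Over ZT14, 18 and 22, Npm1 alone was higher, by 0.19 ± 0.05 log2 (edgeR adjusted p = 0.0177), against 8.37% of all tested genes higher. None was lower in edgeR, against 7.29% of all tested genes. At an unadjusted p below 0.05 in edgeR 5 were lower and 1 higher, and the share of all tested genes at that threshold was not computed. DESeq2 called 0 lower and limma-voom called 1 lower (Grwd1). The absence of lower genes in edgeR was not firm. It was lost in 5 of the 24 fits that left out 1 library, the fit without HepKO ZT14 replicate 1 among them. The median of the 37 was -0.004 log2. Grwd1 stood at -0.20 ± 0.07 log2, Nop2 at -0.22 ± 0.10, Heatr1 at -0.20 ± 0.08 and Utp20 at -0.19 ± 0.07, none of them called in edgeR.

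Whether the light phase and dark phase differences themselves differed was tested as well. The light phase difference (HepKO minus HepWT) was above the dark phase difference for 31 of the 37 genes, against 48.6% of all tested genes. At an unadjusted p below 0.05 in edgeR it was above for 15 and below for 1. The share of all tested genes at that threshold was not computed. None of the 37 passed the adjusted threshold in edgeR (smallest adjusted p = 0.135), against 0.37% of all tested genes higher. DESeq2 and limma-voom called 0 too. The count was 4 without HepKO ZT14 replicate 1 and 7 without a filter on low counts. For the light phase, the count of 11 was 6 without HepKO ZT2 replicate 1 and 7 without each of HepKO ZT6 replicate 1, either HepKO ZT10 library, HepWT ZT6 replicate 1 or either HepWT ZT10 library. The call of Npm1 in the dark phase was lost without HepWT ZT18 replicate 2.

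**Figure D5:**
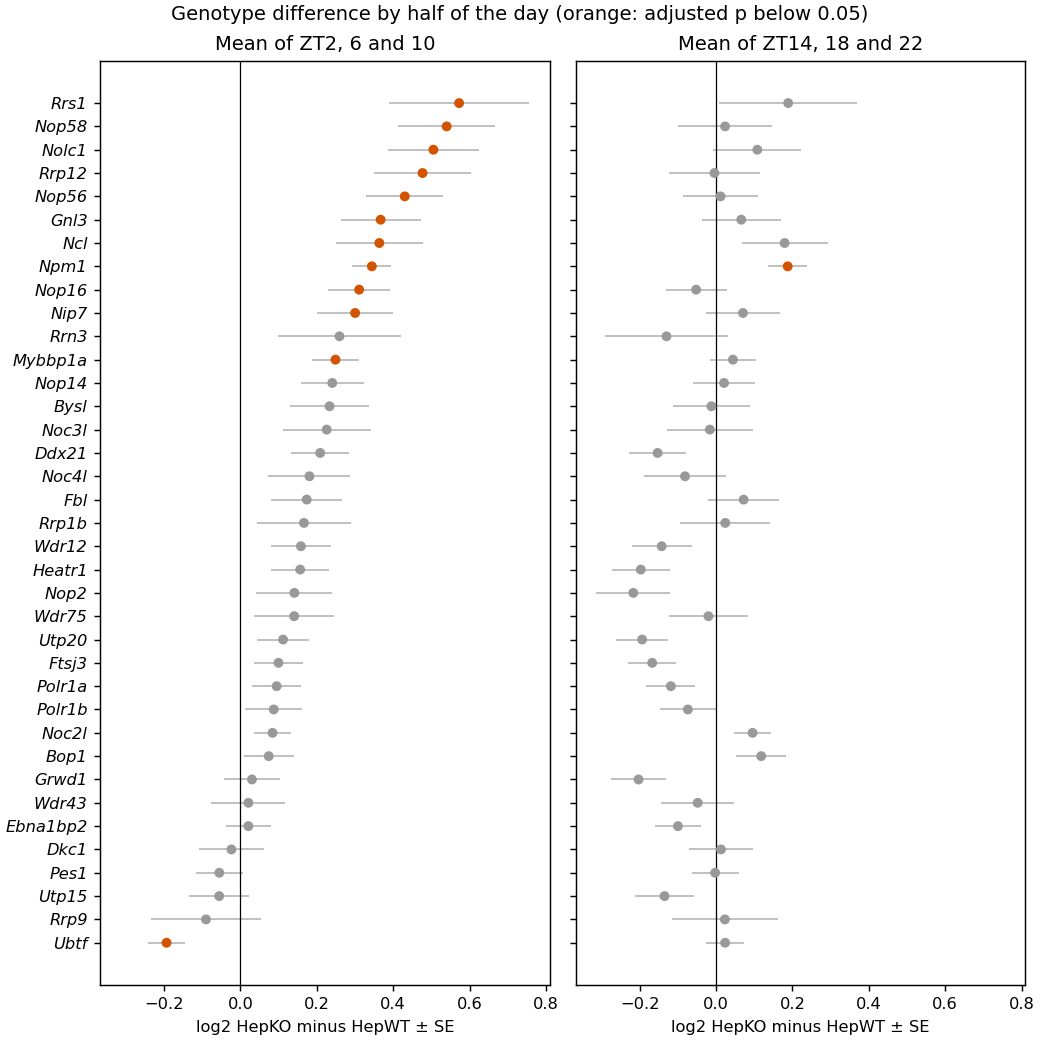
Genotype difference (log2 HepKO minus HepWT, ± SE) of each of the 37 genes, averaged over ZT2, 6 and 10 (left) and over ZT14, 18 and 22 (right), with adjusted p below 0.05 in orange. In the left panel 32 genes lie right of 0 and 12 are called, and in the right panel 17 lie right of 0 and Npm1 alone is called. Of all tested genes, not drawn, 49.2% were above 0 over ZT2, 6 and 10 and 47.8% over ZT14, 18 and 22.

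Wider lists of ribosome biogenesis genes gave a setting for these values. In 6 lists of other factors, 141 genes in all, 40 (28.4%) were rhythmic in HepKO, against 14.3% of all tested genes, and 78 (55.3%) in HepWT, against 30.3%, and 63 of those 78 had a fitted peak between ZT14 and ZT20. The amplitude was lower in HepKO for 93 (66.0%), against 59.7% of all tested genes. For level, 19 (13.5%) were higher in HepKO, a share near the 13.2% of all tested genes, and 5 were lower, against 13.3%, with a median difference of 0.03 log2. Riok2, a kinase of late small subunit maturation, was the only one with a called difference of rhythm (edgeR adjusted p = 0.04), with fitted peaks at ZT19.0 in HepKO and ZT15.8 in HepWT.

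By list, 2 of 16 other RNA polymerase I genes were higher (Taf1c 0.32 and Polr1c 0.18 log2). Of 38 small subunit genes 3 were higher (Tsr1 0.24, Pwp2 0.20 and Utp18 0.17 log2) and 2 lower. The lower ones were Tbl3, by -0.24 log2, and Rcl1, by -0.60 log2, with 58.2 ± 12.7 CPM in HepKO and 91.5 ± 33.5 CPM in HepWT (edgeR adjusted p = 1.24e-08). Rcl1 had a light phase rhythm with fitted peaks at ZT7.87 in HepKO and ZT8.00 in HepWT, unlike the genes above. Of 41 large subunit genes 7 were higher and 2 lower. Of 15 other snoRNP genes Nop10 (0.30 log2), Nhp2 (0.23) and Snu13 (0.12) were higher and Rpap3 (-0.20) was lower. Of 17 nucleolar helicases the smallest adjusted p for level was 0.051 (Dhx37, edgeR). Of 14 genes listed for the RNA exosome 4 were higher, 1 of which, Mpp6, is in mouse also the symbol of a membrane scaffold protein; without it 3 of 13 (Exosc2, Exosc7 and Exosc9) were higher.

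The E-box gave no clear split of the 37 genes. Of the 7 genes with the letters in the promoter window, 3 were rhythmic in HepKO, 5 in HepWT and 1 was higher in HepKO. Of the 25 with a window that held none, 11 were rhythmic in HepKO and 23 in HepWT, and Nolc1, Ncl, Nop56, Nop58 and Gnl3 were higher in HepKO. Npm1 and Rrs1, also higher in HepKO, had no window. Myc, the transcription factor named above, averaged 12.9 ± 10.2 CPM in HepKO and 6.00 ± 5.82 CPM in HepWT, with ranges of 3.38 to 26.8 and 1.75 to 18.4 CPM. Its difference of 1.09 ± 0.42 log2 was not called (edgeR adjusted p = 0.0634). Mycn was lower in HepKO, at 0.40 ± 0.24 CPM there and 0.93 ± 0.58 CPM in HepWT (edgeR adjusted p = 0.00521), and Max, the partner of MYC, was not called, at 13.8 ± 2.97 CPM in HepKO and 14.1 ± 3.02 CPM in HepWT. Mxi1, a MAX-binding repressor, was not called for level either, at 20.1 ± 2.73 CPM in HepKO and 19.3 ± 3.25 CPM in HepWT.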

How the data were processed

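The authors deposited 1 table of raw counts (whole numbers, 1 row per Ensembl gene). Per the submitters' processing notes reads were aligned with STAR 2.4.0i to mm10; per the labels' protocols libraries were stranded and depleted of ribosomal RNA. How reads were counted, and with which annotation and strand setting, is not stated in the sources used here. All 24 columns were used; the 5 with an unexplained name suffix are the 5 HepKO libraries of low depth.

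Counts were fitted with edgeR 4.0.16 under R 4.3.3 after TMM normalization and edgeR's expression filter (10 counts, 15 in total), using quasi-likelihood F tests and Benjamini-Hochberg adjustment over 17275 genes, two-sided. Genotype differences came from group means (12 residual degrees of freedom). Rhythms came from a 24 h cosine and sine per genotype (18 residual degrees of freedom), with SEs by the delta method. Alternatives were DESeq2 1.42.0, limma-voom (3.58.1), other scalings and filters, blocks and left-out libraries. The methods were tested on simulated data.

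Members and lists were chosen with earlier results of these data known. Values are given in full for up to 8 genes with the largest called level difference, up to 8 with the largest HepWT amplitude and up to 4 with the largest HepKO amplitude, and for Ubtf, chosen after its values were seen. Gene positions are from GENCODE M21 and promoter windows from RefSeq. PCR reads are not independent molecules. Replicates differed by 8.42 to 57.7 times the counting variance, and the source of that spread was not tested.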

Additional observations from a re-analysis of the deposited data

How the results depend on the processing

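Across the alternatives the count of genes with a lower amplitude in HepKO, 33 in the reported fit, was within 26 to 36 when 1 library was left out, and it stayed within 1.5 times of 33 in all alternatives run. Leaving out 1 library in turn gave 4 to 12 genes higher in HepKO over all times, 6 to 12 over ZT2, 6 and 10, 0 to 1 over ZT14, 18 and 22, and 0 to 4 for the light phase difference minus the dark phase difference. It gave 10 to 19 rhythmic genes in HepKO and 26 to 32 in HepWT. A group left with 1 library took its spread from the others. The cause of the following changes was not tested. Without a filter on low counts, 0 genes were higher over ZT14, 18 and 22, 7 had a light phase difference above the dark phase difference and 2 (Nop58 and Rrn3) differed in rhythm. Without the 5 HepKO libraries of low depth, 4 genes were higher, 0 over ZT14, 18 and 22, and 1 was rhythmic in HepKO, with fewer samples in the fit. With the HepWT replicate 1 libraries alone, 6 were higher over ZT2, 6 and 10 and 20 rhythmic in HepWT. With the HepWT replicate 2 libraries alone, 2 were higher in all, 5 over ZT2, 6 and 10, and 20 rhythmic in HepWT. With time as a 24 h wave, 3 were higher (Ncl, Npm1 and Mybbp1a). The Nop2 difference, -0.04 log2 and not called, ran from -0.090 to 0.0080 and was 0.0080 without HepKO ZT14 replicate 2. Scaling moved the median of all genes by far less than 0.1 log2.

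With a replicate block, 8 genes were higher in HepKO, 15 were rhythmic in HepKO and 31 in HepWT, and with a replicate block in HepWT only, 0 were higher over ZT14, 18 and 22. The labels do not say what a number marks. Deviations of same-numbered libraries correlated at -0.138 to 0.299 over 66 pairs of groups, with a median of -0.016 within HepKO and 0.169 within HepWT, so not every pair was above 0.1 and the numbers were not taken as pairs, while HepWT libraries of 1 number tended to deviate together. Every member had at least 64 counts in each library, and the part of depth in these results was not tested.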
